A study of Homo sapiens with 9 samples.

Results

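The zinc-dependent histone deacetylases were followed here as the 10 genes HDAC1, HDAC2, HDAC3, HDAC4, HDAC5, HDAC6, HDAC7, HDAC8, HDAC10 and HDAC11, chosen by symbol from the 57766 genes of the deposited table. All 10 reached at least 1 RPKM (reads scaled by transcript length and by library size) in at least 3 libraries and were among the 15774 genes tested. The RNA was taken from HEK293 Freestyle cells, a suspension form of an established line of human embryonic kidney origin, which were washed and then kept for 36 h in 1 of 3 media. The Full group had untreated Freestyle medium, the Depleted group had the same medium with its Zn(II) removed, and the Repleted group had the depleted medium with Zn(II) put back. Each group held 3 libraries of polyadenylated RNA, called biological triplicates in the labels, and all came from this single line. How zinc was removed, and how much was returned, is not given in the sources used here.

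Histone deacetylases take acetyl groups off lysine side chains, of histone tails and of many other proteins, and the classical enzymes hold a catalytic zinc ion in the active site. Class I enzymes (HDAC1, HDAC2, HDAC3 and HDAC8) are mainly nuclear, and the first of these work inside corepressor complexes. Class IIa enzymes (HDAC4, HDAC5 and HDAC7 here, with HDAC9 outside the set) are weak deacetylases that bind MEF2 transcription factors. They leave the nucleus when phosphorylated by kinases. Class IIb (HDAC6 and HDAC10) acts largely in the cytoplasm, and HDAC11 is the only class IV enzyme. The sirtuins, which use NAD and not a zinc ion for catalysis, form a separate family. The series asked how a cell line responds to Zn(II) starvation, and the comparisons below give the transcripts of the enzymes that need this metal. Only RNA was measured, not protein, zinc occupancy or deacetylase activity.

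In Depleted against Full medium, HDAC8 fell 7.75-fold, HDAC7 1.76-fold and HDAC3 1.41-fold in mean RPKM. HDAC11 rose 2.33-fold and HDAC6 1.94-fold, and HDAC1 and HDAC2 rose by far less. HDAC4, HDAC5 and HDAC10 did not pass the test. Against Repleted medium HDAC8, HDAC7, HDAC3 and, more weakly, HDAC5 were lower, and HDAC11 and HDAC6 higher. No member passed the test between Repleted and Full medium, although the HDAC7 libraries of these groups did not overlap.

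Counted over the members, 7 of 10 were called against Full medium, 4 of them rising and 3 falling. The background was 60.9% of the genes tested, with 29.8% rising and 31.2% falling, so the members' share lies near it. In Depleted against Repleted medium 6 of 10 were called, 2 higher and 4 lower, beside 60.7% of all genes (29.5% higher and 31.2% lower). Repleted against Full medium gave 0 calls among the members in limma and 1, HDAC7, at an unadjusted p under 0.05. In that comparison 0.0317% of all genes were called. The median log2 difference of the members was -0.01 against Full and -0.08 against Repleted medium, where that of all genes was 0.00 and -0.01. Both comparisons use the same Depleted libraries.

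Differences were fitted by limma to log2(RPKM + 1), so those of weakly expressed genes come out too small, with a threshold of 0.05 on the adjusted p. Mean RPKM are given ± SD with n = 3 libraries per group. In such bulk RNA, fewer cells of a type and less RNA per cell cannot be told apart. The estimated depth of the libraries was between 17000000 and 23500000 reads. That corresponds to about 6385 to 8835 reads per library for HDAC2, the highest member, and 260 to 544 for HDAC4. Markers of kidney, epithelial and neuronal kind seen in HEK293 cells, 8 in all, summed to 841.73 to 871.42 RPKM over the 9 libraries. In Depleted against Full medium 5 of these fell, NEFL, PAX2, LHX1, KRT8 (135 to 90.4 RPKM) and KRT18 (77.4 to 59.2), while VIM rose (577 to 665), with a median log2 difference of -0.48. Of 13 markers of other cell types in the table, 9 had a mean under 1 RPKM in each group, GFAP among them in Depleted medium and DES in its place in the others, with HBB and INS listed at 0. Their sum was 29.63 to 33.26 RPKM in Full, 17.62 to 19.92 in Depleted and 27.21 to 28.97 in Repleted libraries, mostly from COL1A1 and LUM, which fell, while HBA1 rose from 1.41 to 4.15 RPKM. The part of these shifts in the results below was not tested.

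**Figure D1:**
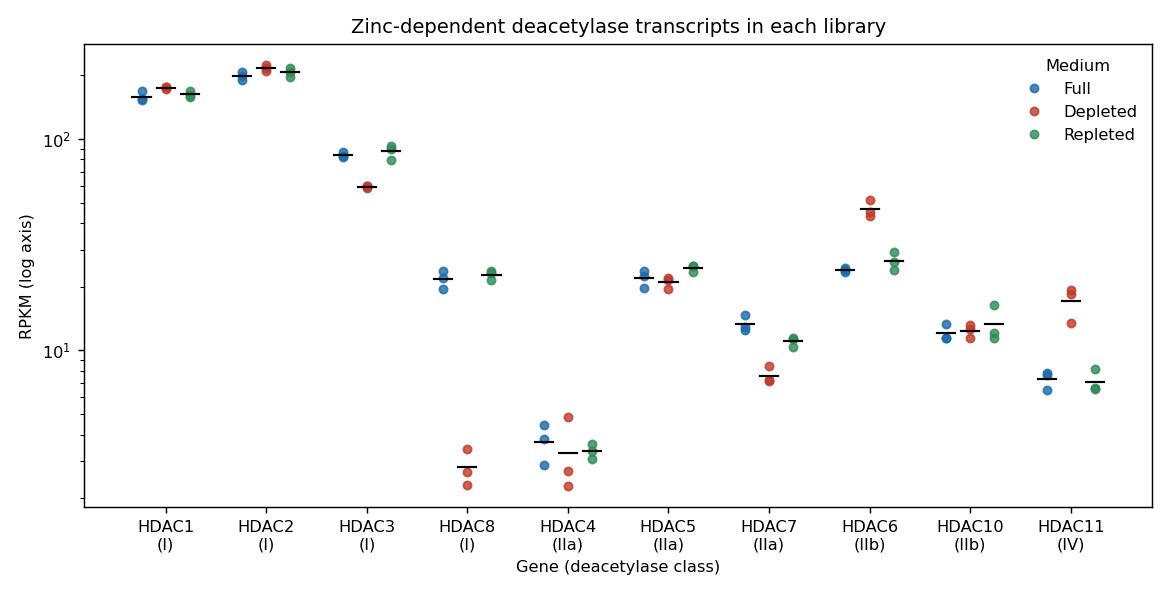
RPKM of each of the 10 deacetylase genes (log axis) in the 9 libraries; points are libraries, coloured by medium, and bars are group means. HDAC8 in the 3 Depleted libraries (2.32 to 3.43 RPKM) sits well below the other 6 (19.53 to 23.85 RPKM), while HDAC6 and HDAC11 sit above theirs.

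HDAC8 (ENSG00000147099) is an X-linked class I enzyme that works without a corepressor complex and deacetylates the cohesin subunit SMC3. It stood at 22.11, 23.63 and 19.53 RPKM in the Full libraries and at 3.43, 2.67 and 2.32 in the Depleted ones. The Repleted libraries gave 21.46, 23.85 and 23.25 RPKM. All 3 Depleted libraries thus lay far under every other library, and the Full and Repleted libraries overlapped. The means were 21.8 ± 2.07, 2.81 ± 0.567 and 22.9 ± 1.24 RPKM.

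The log2 difference of HDAC8 was -2.59 (SE 0.11, adjusted p = 8.53e-08) against Full and -2.66 (adjusted p = 7.01e-08) against Repleted medium. Only 0.178% of the genes tested had a lower log2 difference against Full medium, where HDAC8 ranked 29 from the lowest of 15774. Falls of at least 2-fold were seen in 6.81% of genes. Behind the Depleted values stood an estimated 106, 83 and 62 reads per library, and behind the others 528 to 739. Between Repleted and Full medium the difference was 0.07, with a 95% interval of -0.18 to 0.32.

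In the GENCODE annotation HDAC8 lies between CITED1 and PHKA1. CITED1, a transcriptional coregulator, went from 2.93 ± 0.0551 to 1.69 ± 0.0503 RPKM in Depleted medium (log2 -0.55, adjusted p = 0.000711). PHKA1, a phosphorylase kinase subunit, went from 13.4 ± 0.738 to 17.0 ± 0.624 RPKM (log2 0.33, adjusted p = 0.000866). The small nuclear RNA pseudogene RNU2-68P, which overlaps HDAC8, was listed at 0. AL133500.1, annotated as protein-coding, also overlaps HDAC8 on the same strand and has no expression values here. Whether reads are shared with it was not tested. The flanking genes thus moved in opposite directions, each by less than HDAC8 did.

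HDAC1 (ENSG00000116478) and HDAC2 (ENSG00000196591) are close paralogs that form the catalytic core of the SIN3, NuRD and CoREST complexes. HDAC1 had 154, 169 and 152 RPKM in Full, 172, 175 and 175 in Depleted and 169, 159 and 162 in Repleted libraries. The Depleted libraries lay just above all others, by a small margin. The rise over Full medium was 0.14 on the log2 scale (SE 0.043, adjusted p = 0.0187), from 159 ± 9.35 to 174 ± 1.74 RPKM. This call was lost in 5 of 17 alternatives, with adjusted p up to 0.0695 without the third Full library. It was also lost without the first Full, the second Depleted or the third Depleted library. Against Repleted medium the difference of 0.10 did not pass the test (adjusted p = 0.0776), although it did with median centring (adjusted p = 0.0185).

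HDAC2 had 207, 199 and 191 RPKM in Full, 210, 218 and 224 in Depleted and 197, 207 and 216 in Repleted libraries. Depleted libraries were above all Full libraries and overlapped the Repleted ones. The difference from Full medium was 0.13 (SE 0.044, adjusted p = 0.0316), from 199 ± 8.48 to 217 ± 6.67 RPKM. It was lost in 7 of 17 alternatives, with adjusted p up to 0.111 without the third Full library. Without the second Full, the second Depleted or the third Depleted library it was lost as well. Against Repleted medium it was 0.07, with a 95% interval of -0.03 to 0.17 (adjusted p = 0.184). The pseudogene HDAC1P1 was listed at 0 in every library and HDAC1P2 reached at most 0.09 RPKM, so little signal was assigned to these copies.

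HDAC3 (ENSG00000171720) is the catalytic subunit of a nuclear receptor corepressor complex. Its level was 86.9, 82.9 and 82.0 RPKM in Full, 58.8, 59.8 and 60.0 in Depleted and 90.0, 79.9 and 92.3 in Repleted libraries. The Depleted libraries were tightly grouped and stood below all others. The log2 difference was -0.49 (SE 0.053, adjusted p = 3.48e-05) against Full and -0.54 (adjusted p = 1.66e-05) against Repleted medium, which is 1.41-fold and 1.47-fold lower. Repleted and Full means were 87.4 ± 6.59 and 83.9 ± 2.65 RPKM.

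HDAC7 (ENSG00000061273), a class IIa enzyme known for roles in blood vessel and lymphocyte development, had 14.7, 12.9 and 12.5 RPKM in the Full libraries. Depleted libraries had 8.4, 7.26 and 7.17 RPKM, and Repleted ones 10.4, 11.3 and 11.5. The 3 groups did not overlap, and the Repleted libraries lay between the others. The fall from Full medium was -0.74 on the log2 scale (SE 0.084, adjusted p = 4.9e-05) and the difference from Repleted medium -0.49 (adjusted p = 0.000713). Repleted against Full medium gave -0.25, with a 95% interval of -0.44 to -0.06. That had an unadjusted p of 0.0155 and an adjusted p of 0.544, and did not pass the test.

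An overlap bears on HDAC7. SLC48A1, a heme transporter gene, overlaps HDAC7 on the other strand in the GENCODE annotation, and the sources used here do not state whether the counting used strand. SLC48A1 itself went from 5.24 to 2.48 RPKM (log2 -0.85, adjusted p = 0.00227), so reads of these genes may not be separable.

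HDAC5 (ENSG00000108840) and HDAC4 (ENSG00000068024) are class IIa repressors known from muscle, heart and bone. HDAC5 had 19.6, 23.8 and 22.5 RPKM in Full, 22.1, 21.5 and 19.6 in Depleted and 25, 25.2 and 23.5 in Repleted libraries. Full and Depleted libraries overlapped, and the Repleted ones were above every Depleted library. The difference from Full medium was -0.06, with a 95% interval of -0.23 to 0.11. Against Repleted medium it was -0.22 (SE 0.075, adjusted p = 0.0308), a call lost in 7 of 17 alternatives with adjusted p up to 0.109 without the third Depleted library. It was lost too without the second Depleted, the first Repleted or the second Repleted library, and with median centring (adjusted p = 0.0699).

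HDAC4 had the lowest mean of the members in Full and Repleted medium, and HDAC8 had it in Depleted medium. HDAC4 had 2.88, 3.82 and 4.42 RPKM in Full, 4.82, 2.28 and 2.69 in Depleted and 3.07, 3.61 and 3.35 in Repleted libraries. The first Depleted library was the highest and the other Depleted libraries the lowest of all 9. The difference from Full medium was -0.18, with a wide 95% interval of -0.64 to 0.29 (adjusted p = 0.489). Without that first Depleted library it was -0.42 (adjusted p = 0.0437). HDAC9 (ENSG00000048052), the remaining class IIa gene and outside the set, was low, at 1.75 ± 0.286, 1.15 ± 0.416 and 1.94 ± 0.301 RPKM in Full, Depleted and Repleted medium. Its difference was -0.37 from Full medium (adjusted p = 0.077) and -0.46 from Repleted medium (adjusted p = 0.0338), the latter without overlap of libraries and lost in 8 of 17 alternatives.

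HDAC6 (ENSG00000094631) is a cytoplasmic deacetylase of tubulin and the HSP90 chaperones, and its zinc finger binds ubiquitin. Its RPKM were 23.96, 23.5 and 24.5 in Full libraries, 51.4, 43.3 and 44.9 in Depleted and 26.3, 29.3 and 23.9 in Repleted ones. Every Depleted library was above all others. Means went from 23.98 ± 0.545 to 46.6 ± 4.31 RPKM and were 26.5 ± 2.72 in Repleted medium. The log2 difference was 0.93 (SE 0.081, adjusted p = 8.52e-06) against Full and 0.79 (adjusted p = 2.42e-05) against Repleted medium.

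HDAC10 (ENSG00000100429), the other class IIb enzyme, prefers acetylated polyamines to histones. It had 11.4, 13.3 and 11.5 RPKM in Full, 12.6, 13.1 and 11.4 in Depleted and 16.5, 12.1 and 11.4 in Repleted libraries. All 3 groups overlapped. The log2 difference from Full medium was 0.04, with a 95% interval of -0.25 to 0.32, and from Repleted medium -0.08, with an interval of -0.36 to 0.20. MAPK12 overlaps HDAC10 on the same strand in the annotation, and had 26.9 and 26.5 RPKM in Full and Depleted medium.

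HDAC11 (ENSG00000163517), the class IV enzyme, removes long fatty acyl groups from lysines more readily than acetyl groups. It had 6.5, 7.85 and 7.64 RPKM in Full, 13.5, 18.5 and 19.2 in Depleted and 8.13, 6.54 and 6.67 in Repleted libraries. The Depleted libraries were all higher, the first of them less so. Means were 7.33 ± 0.726, 17.1 ± 3.14 and 7.11 ± 0.883 RPKM. The log2 difference was 1.11 (SE 0.136, adjusted p = 8.17e-05) against Full and 1.15 (adjusted p = 6.43e-05) against Repleted medium. An antisense transcript, HDAC11-AS1, was at 0 to 0.6 RPKM.

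**Figure D2:**
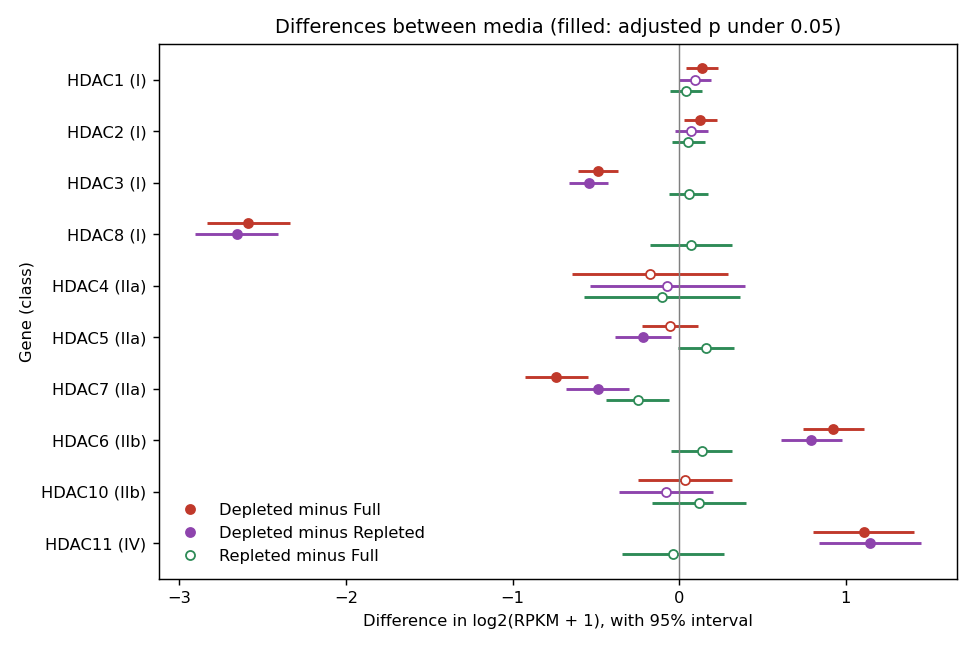
Log2 differences of the 10 members in the 3 comparisons, on the log2(RPKM + 1) scale; points are limma estimates and bars 95% intervals. HDAC8 lies at -2.59 and -2.66 in the Depleted comparisons, HDAC6 and HDAC11 lie at 0.79 to 1.15, and every Repleted against Full estimate lies between -0.25 and 0.16.

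The calls of HDAC8, HDAC3, HDAC7, HDAC6 and HDAC11 against both other media held under all 17 alternatives run. Among these, the libraries of Depleted medium overlapped neither other group in any. Over all members, 7 of 10 showed no overlap with Full and 7 of 10 none with Repleted libraries, beside 67.6% and 65.2% of all genes. Between Repleted and Full medium it was 1 of 10, HDAC7, beside 12.4% of all genes. The median absolute log2 difference of all genes was 0.36 against both media, and that of HDAC8 was far larger. HDAC11 ranked 416 and HDAC6 ranked 689 from the highest of 15774.

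**Figure D3:**
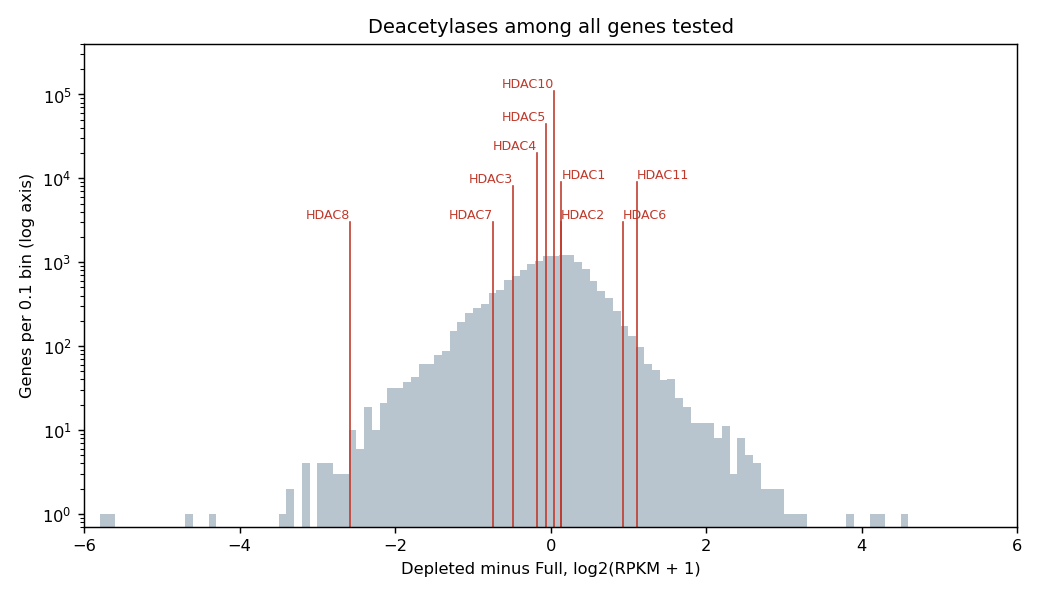
Histogram of the log2 difference of Depleted against Full medium for all 15774 genes tested (genes per bin, log axis), with the 10 members marked by lines whose heights carry no value. HDAC8 at -2.59 is in the far lower tail, HDAC11 at 1.11 and HDAC6 at 0.93 are in the upper shoulder, and the others are nearer the centre.

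The summed level of the family hardly moved while its makeup did. The 10 genes added up to 546 ± 16.7 RPKM in Full, 562 ± 4.36 in Depleted and 566 ± 8.1 in Repleted libraries, a description with no test. HDAC2 and HDAC1 together held most of it, with mean shares of 36.4% and 29.03% in Full and 38.7% and 31.0% in Depleted medium. HDAC3 went from 15.4% to 10.6% of the sum. HDAC8 went from 3.98% ± 0.262 to 0.5% ± 0.105 and was at 4.04% ± 0.245 in Repleted medium. HDAC6 went from 4.4% ± 0.233 to 8.29% ± 0.816 and HDAC11 from 1.34% to 3.04%. By class, IIb went from 36.1 ± 0.702 to 59.0 ± 4.42 RPKM and IIa, without HDAC9, from 39.0 ± 1.62 to 31.9 ± 3.05, while class I had 463 ± 16.4 and 454 ± 8.32.

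**Figure D4:**
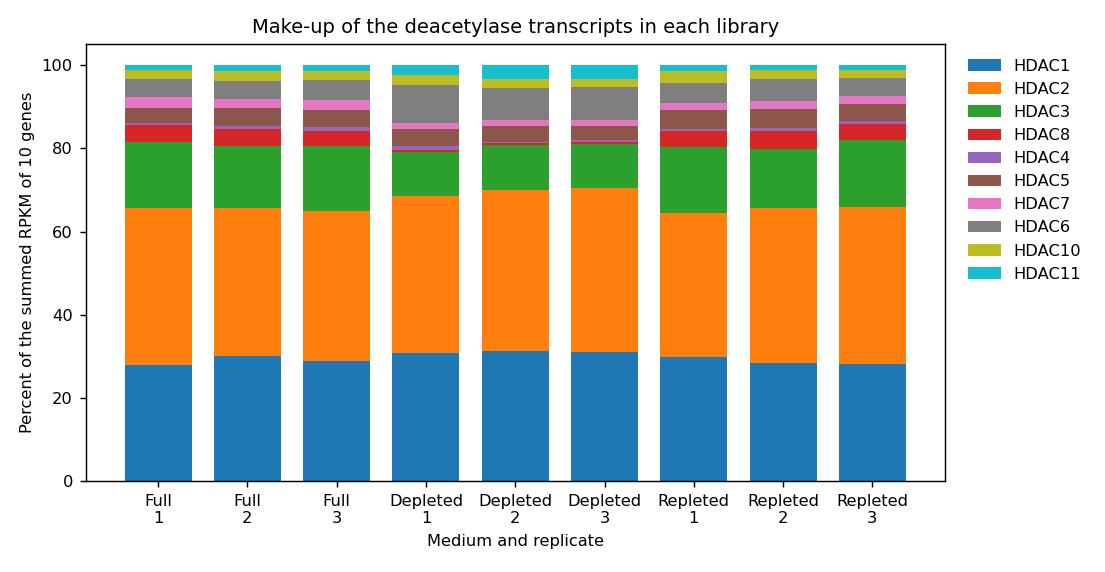
Share of the summed RPKM of the 10 members (percent) held by each gene, in stacked bars for the 9 libraries. HDAC2, HDAC1 and HDAC3 fill most of every bar; in the 3 Depleted bars the HDAC8 band is almost gone and the HDAC6 and HDAC11 bands are wider.

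The order of levels per length was the same at the top in every medium, with HDAC2 above HDAC1, HDAC1 above HDAC3 and no overlap between neighbours. In Full medium HDAC6, HDAC5 and HDAC8 followed with overlapping libraries, then HDAC7 and HDAC10, which also overlapped, then HDAC11 and last HDAC4. In Repleted medium the order was the same except that HDAC10 and HDAC7, still overlapping, exchanged places. In Depleted medium HDAC6 stood alone in the fourth place, HDAC11 had passed HDAC10 and HDAC7, and HDAC8 was last, overlapping only with HDAC4. HDAC8 was thus 6 in rank in the media with zinc and 10 without it.

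Promoter sequence was read for the members as a description, since MTF1, the factor that switches on zinc-responsive genes, binds metal response elements near start sites. The 250 bases before the start were taken from the RefSeq promoter table (build GRCh38.p14), which held 9 of the 10 members in 15 windows, 5 of them for HDAC4, 3 for HDAC6 and 1 for each of 7 genes. The start used in these cells may be another. Shown here, 5′ to 3′ on the gene's strand with each CpG in capitals, are HDAC8, HDAC7 and HDAC11. HDAC8 and HDAC7 had the largest falls and HDAC11 the largest rise. HDAC8 differs in base composition from HDAC7 and HDAC11, which are close to each other.
HDAC8: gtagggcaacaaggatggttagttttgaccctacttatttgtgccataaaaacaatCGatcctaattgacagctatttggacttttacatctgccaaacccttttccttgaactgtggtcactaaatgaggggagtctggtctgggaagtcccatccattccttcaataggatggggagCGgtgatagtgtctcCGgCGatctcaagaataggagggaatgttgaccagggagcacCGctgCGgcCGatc
HDAC7: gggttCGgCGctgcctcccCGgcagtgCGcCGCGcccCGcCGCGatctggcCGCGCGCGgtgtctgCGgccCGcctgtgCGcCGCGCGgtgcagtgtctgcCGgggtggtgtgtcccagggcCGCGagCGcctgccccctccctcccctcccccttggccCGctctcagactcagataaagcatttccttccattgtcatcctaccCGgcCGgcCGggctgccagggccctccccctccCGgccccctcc
HDAC11: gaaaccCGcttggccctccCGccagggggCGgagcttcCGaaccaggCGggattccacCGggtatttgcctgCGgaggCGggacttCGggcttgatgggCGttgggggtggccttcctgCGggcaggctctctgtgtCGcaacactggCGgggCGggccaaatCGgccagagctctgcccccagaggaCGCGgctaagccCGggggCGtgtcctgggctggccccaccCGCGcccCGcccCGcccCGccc
They lie at chrX:72572844-72573093 (minus strand), chr12:47819904-47820153 (minus strand) and chr3:13480056-13480305 (plus strand). The HDAC8 window had 7 CpG and 48.0% GC, under the medians of 11 CpG and 58.0% GC over 35116 windows. HDAC7 had 28 CpG and 75.6% GC, and HDAC11 had 24 CpG and 73.6% GC. HDAC3, which also fell, had 22 CpG and 70.8% GC. The 5 windows of HDAC4, which did not pass the test, had 2, 4, 8, 9 and 33 CpG, and the one with 4 CpG had 48.0% GC. A window of HDAC6, which rose, was also under the median GC. Low CpG or GC content was thus not particular to HDAC8. Whether CpG content bears on these changes was not tested.

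The core of the metal response element was searched on both strands as TGCACNC, found in 9.87% of windows, and TGCGCNC, found in 16.8%. Either was in 24.8%, and matches on opposite strands can overlap. They occurred in 3 of 15 member windows, 1 of HDAC2 and 2 of the 5 of HDAC4. In HDAC2 they began 216 and 41 bases before the start. The windows of HDAC8, HDAC3, HDAC7, HDAC6, HDAC11, HDAC1 and HDAC10 did not hold these letters.

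The genes whose log2 values over the 9 libraries were most like HDAC8 were UBE2Z, a ubiquitin-conjugating enzyme, with a Pearson r of 0.9995, LTA4H (0.9983), IFRD2 (0.9982), ITGB3BP (0.9981) and TMEM98 (0.998). For HDAC11 they were RAC1 (0.993), RP11-178L8.4 (0.9911), PDK1 (0.9887), STX5 (0.9881) and PPIE (0.9871). For HDAC6 they were DHX34 (0.9919), GGNBP2 (0.9913), KCTD9 (0.9912), TMEM45A (0.991) and CCDC146 (0.9908). A high r does not mean a change of like size. In Depleted against Full medium UBE2Z differed by -0.82 on the log2 scale and HDAC8 by -2.59. RAC1 differed by 0.19 and HDAC11 by 1.11, and DHX34 differed by 0.54, CCDC146 by 1.05 and HDAC6 by 0.93. These values describe the 9 libraries, which differ in medium and in estimated depth. The part of either in these r values was not tested. An r above 0.95 with HDAC8 was reached by 2134 genes, with HDAC6 by 823 and with HDAC11 by 701, so a high r was common.

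Genes of the complexes that carry HDAC1 and HDAC2 were called in both directions, with counts and adjusted p given for Depleted against Full medium unless stated. In that comparison 29.8% of all genes tested were higher and 31.2% lower, the background for each list below. Of the 7 CoREST genes, 5 were lower (4 with quantile normalization) and 1 higher, with a median log2 difference of -0.66 beside 0.00 for all genes tested. KDM1A, the histone demethylase of that complex, fell from 104 ± 2.49 to 61.6 ± 3.2 RPKM (log2 -0.74, adjusted p = 1.05e-06), HMG20B from 51.9 to 27.6 and RCOR2 from 3.7 to 0.483, while RCOR3 rose by 0.41. Of the 15 SIN3 genes, 8 were higher and 1 lower, with a median of 0.23. RBBP4, a histone chaperone shared with NuRD, rose from 222 ± 8.74 to 345 ± 12.8 RPKM and its paralog RBBP7 fell from 434 ± 7.12 to 334 ± 9.53. SAP30 rose from 19.9 to 38.2 and the scaffold SIN3A from 24.4 to 34.9 RPKM.

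Of the 10 NuRD genes tested, 3 were higher and 5 lower (3 and 3 with median centring). The alternative remodelling ATPases of NuRD moved apart: CHD3 rose from 24.8 ± 2.35 to 53.7 ± 0.998 RPKM (log2 1.09, adjusted p = 1.02e-06) and CHD4 fell from 124 ± 12.8 to 73.5 ± 3.89 (log2 -0.75, adjusted p = 1.01e-05). MTA1 and MTA2 fell, by 0.36 and 0.33 on the log2 scale. Among partners of HDAC3, GPS2 rose from 52.0 to 80.7 RPKM. NCOR1 did not pass the test against Full medium (log2 -0.14, adjusted p = 0.052; 3 of 17 alternatives called it) and was lower than in Repleted medium (log2 -0.21, adjusted p = 0.00936). Of 3 tested genes of the mitotic deacetylase complex, 1 was lower (2 with quantile normalization), and TRERF1 fell from 2.15 to 0.607 RPKM.

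Around HDAC8, 6 of 13 genes of cohesin and its regulators were higher and 2 lower, beside 29.8% and 31.2% of all genes. The counts were 7 and 1 with median centring, and the median log2 difference was 0.12. The HDAC8 substrate SMC3 rose from 40.0 ± 0.189 to 60.5 ± 0.839 RPKM (log2 0.59, adjusted p = 4.46e-07) and stood at 39.6 ± 0.594 in Repleted medium. STAG1, an alternative cohesin subunit, rose from 16.2 to 31.0, STAG2 from 51.0 to 65.0 and CDCA5, which protects cohesin on replicated chromatin, from 43.3 to 76.5 RPKM.

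Around the class IIa enzymes, 8 of 11 genes of the MEF2 factors and the YWHA adaptor proteins that hold phosphorylated HDACs in the cytoplasm were lower and 1 higher (7 lower with median centring). YWHAZ fell from 318 to 228 RPKM, YWHAE from 882 to 747 and MEF2D by 0.39 on the log2 scale. Of 12 kinases that phosphorylate these HDACs, 7 were lower and 1 higher (5 lower with median centring). Both lists stand beside 31.2% lower and 29.8% higher among all genes tested. CAMK4 fell from 7.83 ± 0.501 to 1.92 ± 0.437 RPKM (log2 -1.61), CAMK2D from 18.0 to 8.4 RPKM, while PRKD2 rose by 0.35 on the log2 scale.

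Of 12 genes listed around HDAC6, which include substrates but also VCP and ZFAND5, 6 were higher and 4 lower (7 and 3 with median centring). HSP90AB1, a chaperone, fell from 992 ± 1.54 to 520.7 ± 6.61 RPKM, while its paralog HSP90AA1 rose by 0.42 on the log2 scale (adjusted p = 2.94e-06). TUBA1A, an alpha-tubulin, fell from 232 ± 2.38 to 159 ± 3.28 RPKM, and the peroxidase PRDX2 rose from 274 to 489. ATAT1, the tubulin acetyltransferase that opposes HDAC6, was at 0.28 on the log2 scale and did not pass the test (adjusted p = 0.0509). Of 11 polyamine genes, the pathway of HDAC10 substrates, 5 were higher and 4 lower (3 lower with median centring). The shares over all genes tested were 29.8% higher and 31.2% lower. SAT1, the enzyme that acetylates spermidine and spermine, rose from 37.4 ± 1.98 to 109.9 ± 1.78 RPKM (log2 1.53, adjusted p = 5.19e-07).

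**Figure D5:**
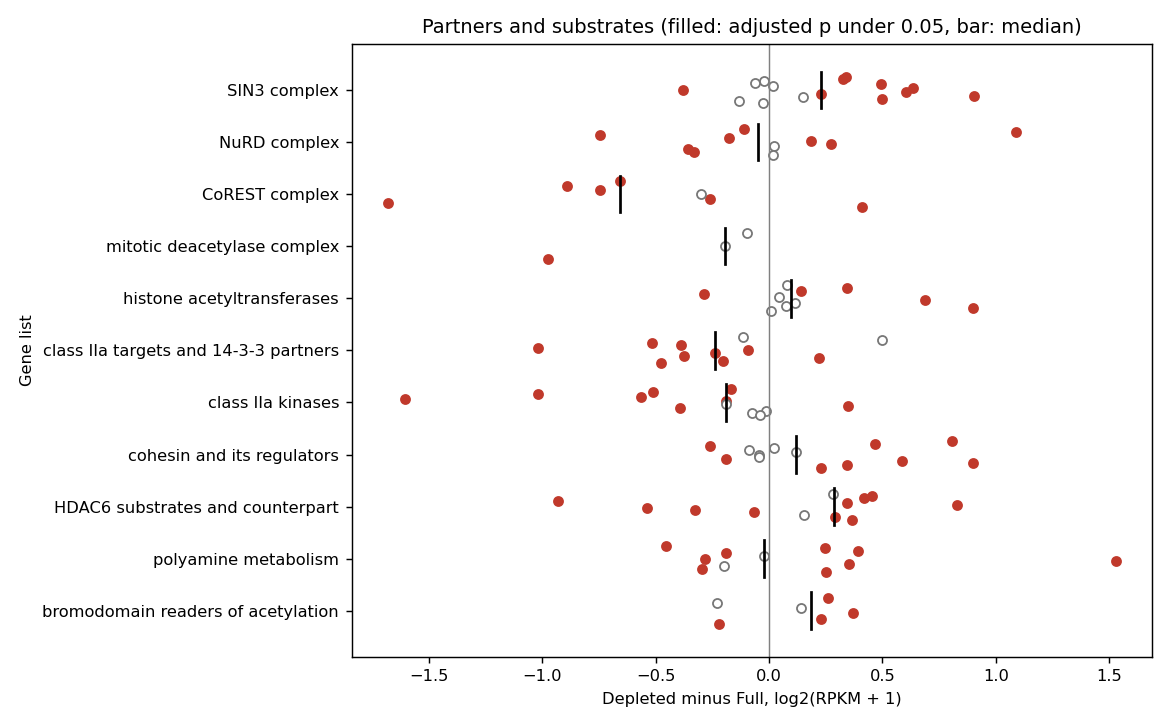
Log2 differences of Depleted against Full medium for the tested genes of each partner list, 1 point per gene, with list medians marked. Most CoREST points lie below 0 (median -0.66) and most SIN3 points above it (median 0.23).

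The NAD-dependent sirtuins gave 5 higher and 1 lower of 6 tested against Full medium, beside 29.8% and 31.2% of all genes. Their median log2 difference was 0.38. Against Repleted medium they gave 4 higher and 1 lower, with a median of 0.24, and the SIRT5 call there was lost in 12 of 17 alternatives. SIRT6, a chromatin deacylase, rose from 13.4 ± 0.878 to 34.6 ± 1.86 RPKM (log2 1.31, adjusted p = 1.05e-06) and SIRT1 from 15.5 to 26.8. SIRT3, the main mitochondrial deacetylase, fell from 13.2 to 8.63 RPKM. Of the histone acetyltransferases that oppose the deacetylases, 4 of 10 were higher and 1 lower. KAT7 rose from 26.0 to 49.3 and KAT5 from 27.3 to 44.4 RPKM, and KAT2A fell by 0.29 on the log2 scale. Against Repleted medium 29.5% of all genes tested were higher and 31.2% lower. There, 8 of 15 SIN3 genes were higher and 1 lower, and 6 of 13 cohesin genes higher and 1 lower. Of 7 CoREST genes 1 was higher and 5 lower (4 lower with quantile normalization). Of 10 NuRD genes 1 was higher and 4 lower (2 and 3 with median centring, 2 and 5 with quantile normalization). Of 11 MEF2 and YWHA genes 1 was higher and 6 lower (5 lower with quantile normalization). Of 12 kinases 1 was higher and 7 lower (5 lower with median centring). No gene of any of these lists was called between Repleted and Full medium, where 0.0317% of all genes tested were called. The lists were chosen with earlier results of these data known, so their counts are a description beside the background percentages.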

How the data were processed

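Polyadenylated RNA was measured in 9 libraries, 3 per group, grouped by their titles and culture medium. The authors deposited 1 table of log2(RPKM + 1) per gene. The submitters' processing notes list hg19/GRCh37, BWA 0.7.12-r1039, bedtools 2.25.0.3, RSEM 1.2.6 and Bowtie 1.0.1, with no roles, and strand handling is not given in the sources used here. The table held 57766 genes and 20320 blank rows, which were left out. It holds no counts, so depth was estimated from the steps between low values.

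The deposited log2 values (pseudocount 1) were fitted with limma 3.58.1 in R 4.3.3, with 1 mean per group and a variance trend, over all 9 libraries. The tested genes, 15774, reached 1 RPKM in 3 or more libraries, with Benjamini-Hochberg adjustment over all of them, a threshold of 0.05 and 95% intervals. The fit was tested on simulated data. RPKM were obtained by undoing the log.

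Genes were named by rule: all members, up to 4 genes with the smallest p of each partner list, other HDAC rows, annotated neighbours, and the 5 genes most like each of the 3 members that changed most. RCOR3, MEF2D, PRKD2, KAT2A, ATAT1, HSP90AA1, VIM, LHX1 and DES, and the overlapping SLC48A1 and MAPK12, were named after their values were seen. The members and lists were chosen with earlier results of these data known.

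Alternatives were a pseudocount of 0.1, no filter, a mean of at least 1 RPKM, median centring, quantile normalization, only the 6 libraries compared, a replicate block, leaving out each library and a threshold of 0.01. Expression rests on another build than the annotation, so gene coordinates are not given. Overlaps and neighbours came from GENCODE v29 and promoters from RefSeq. Figures used matplotlib 3.10.9 in Python 3.11.15.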

Additional observations from a re-analysis of the deposited data

How the results depend on the processing

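Over 17 alternatives, 157 of 170 member values in Depleted against Full medium kept their side of the threshold, 12 lost the call and 1 gained it. Against Repleted medium 159 kept it, 7 lost and 4 gained the call, and between Repleted and Full medium all 170 kept it. Of the values that kept their side, 2, 4 and 5 in these comparisons reached 0 or changed sign, all of members not called there. No called value changed sign. The calls that changed were those of HDAC1, HDAC2, HDAC4 and HDAC5. HDAC8 in Depleted against Full medium ran from -2.92 to -2.49 on the log2 scale, the first with a pseudocount of 0.1.

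The count of genes called between Repleted and Full medium was 5. It was 3 with a pseudocount of 0.1, 2 without the filter, 2 with only the 6 libraries compared, 1 at a threshold of 0.01, and 1 to 9 when a library was left out. With the replicate number as a block it was 2. Libraries with the same number were not treated as paired: their residuals correlated at -0.0144 to 0.0726 over 9 pairs, under the cutoff of 0.1, and 5 of 9 libraries correlated best with their own number. The block ended 1 member call, HDAC2 against Full medium (adjusted p = 0.0553). HDAC4 had the widest interval of the members, at an estimated 260 to 544 reads per library. HDAC8, with fewer estimated reads in the Depleted libraries (106, 83 and 62), had a narrower interval.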

Other observations

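Genes that read lysine acetylation were listed as 6 bromodomain genes. Of these, 3 rose and 1 fell in Depleted against Full medium (4 higher with median centring), with a median log2 difference of 0.18. Over all genes tested, 29.8% rose and 31.2% fell. BRD2, a chromatin reader of acetylated histones, went from 318 ± 8.86 to 380.5 ± 4.64 RPKM and BRD7, a subunit of a SWI/SNF remodelling complex, from 63.4 ± 1.15 to 82.3 ± 2.55. BRPF1, a scaffold of acetyltransferase complexes, went from 14.2 ± 0.486 to 12.1 ± 0.588 RPKM, a call that 3 of 17 alternatives changed. No bromodomain gene of the list was called between Repleted and Full medium.

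Of antisense transcripts of the deacetylases, HDAC2-AS2 had means of 1.06 and 0.803 RPKM in Full and Depleted medium. AC062017.1, antisense to HDAC4, had 1.16 and 1.9 RPKM, a difference that did not pass the test (adjusted p = 0.205).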
